A study of Mus musculus with 6 samples.

Results

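The genes described here are enzymes that convert steroids, together with the mitochondrial proteins Star and Tspo, in single cells of the mouse preoptic region. They were chosen by name as Cyp19a1, Srd5a1, Hsd17b12, Hsd11b1, Sts, Star and Tspo, and 6 of these 7 symbols are among the 27998 genes of the count table. Sts was not analysed here. The cells came from 3 libraries of female and 3 of male adult Mus musculus, in each of which 3 mice were pooled, aged 60 to 70 postnatal days that had been housed alone for 3 days. No strain, transgene or drug is named in the labels, and separate housing was common to both sexes. Pieces of the preoptic region were dissociated with proteases, living cells were sorted by flow cytometry, and polyadenylated RNA was counted on the 10x Chromium platform as unique molecular identifiers (UMIs), each standing for 1 captured transcript. Because each library is a pool, an SD over libraries is the spread between pools and not between mice.

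Steroid hormones act on the brain both as they arrive in the blood and after local conversion. Star and Tspo sit at the mitochondrial outer membrane: Star moves cholesterol inward for the first step of steroid synthesis in the gonad and adrenal gland, and Tspo is a cholesterol and benzodiazepine-site binding protein that is widely used as a marker of reactive glia. Cyp19a1 (aromatase) turns androgens into estrogens, a step through which testosterone acts on the preoptic region and on male-typical behaviour. Srd5a1 is a steroid 5-alpha reductase, which turns progesterone and testosterone into their reduced forms and leads toward the neurosteroid allopregnanolone. Hsd17b12 reduces ketoacyl-CoA in the elongation of very long-chain fatty acids and has also been described as reducing estrone to estradiol. Hsd11b1 regenerates active glucocorticoid from its inactive keto form.

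In the annotation of the mm10 build, GENCODE M21, Cyp19a1 (ENSMUSG00000032274) lies on chromosome 9 at 54165937-54268110, Srd5a1 (ENSMUSG00000021594) on chromosome 13 at 69573449-69611442 and Hsd17b12 (ENSMUSG00000027195) on chromosome 2 at 94032689-94157964. Hsd11b1 (ENSMUSG00000016194) lies on chromosome 1 at 193221634-193264075, and these 4 genes are all on the minus strand. Star (ENSMUSG00000031574) lies on chromosome 8 at 25806555-25815982 and Tspo (ENSMUSG00000041736) on chromosome 15 at 83563592-83574203, both on the plus strand. Of the 1051 exonic bases of Tspo, 53 overlap an exon of Mcat on the opposite strand, so reads from those bases could belong to either gene where counting ignored strand (the setting is not given in the labels or files used). The exons of the other 5 genes share no base with a counted gene.

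RefSeq start sites were at hand for 4 of the 6 genes, as windows of 300 bases on GRCm38.p6 that run from 250 bases before a start to 50 bases from the start on. They are shown because the genes differ in how much CpG their starts hold, with every CG dinucleotide in capitals and the strand of the gene read 5′ to 3′. The windows lie at chr13:69611414-69611713 for Srd5a1, chr2:94157860-94158159 for Hsd17b12, chr1:193242311-193242610 for Hsd11b1 and chr9:54268115-54268414 for the most upstream of the 3 starts listed for Cyp19a1, all on the minus strand.
Srd5a1: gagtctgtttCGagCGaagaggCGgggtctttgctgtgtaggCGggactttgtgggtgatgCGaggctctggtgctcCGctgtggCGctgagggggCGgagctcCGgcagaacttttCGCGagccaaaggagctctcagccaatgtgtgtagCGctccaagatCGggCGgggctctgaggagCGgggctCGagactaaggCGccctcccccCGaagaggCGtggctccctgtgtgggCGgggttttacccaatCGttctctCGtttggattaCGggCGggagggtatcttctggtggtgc
Hsd17b12: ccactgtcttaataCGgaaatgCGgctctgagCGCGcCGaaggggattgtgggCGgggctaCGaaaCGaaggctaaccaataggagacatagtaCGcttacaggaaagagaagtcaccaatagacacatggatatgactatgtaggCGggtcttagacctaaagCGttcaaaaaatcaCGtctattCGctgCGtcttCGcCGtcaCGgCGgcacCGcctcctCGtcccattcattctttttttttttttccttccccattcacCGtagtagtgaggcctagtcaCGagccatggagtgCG
Hsd11b1: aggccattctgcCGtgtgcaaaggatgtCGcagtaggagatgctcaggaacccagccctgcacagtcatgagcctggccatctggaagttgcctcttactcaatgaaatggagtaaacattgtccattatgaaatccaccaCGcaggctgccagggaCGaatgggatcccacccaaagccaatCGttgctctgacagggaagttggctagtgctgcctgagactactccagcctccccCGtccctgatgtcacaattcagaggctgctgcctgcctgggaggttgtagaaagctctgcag
Cyp19a1: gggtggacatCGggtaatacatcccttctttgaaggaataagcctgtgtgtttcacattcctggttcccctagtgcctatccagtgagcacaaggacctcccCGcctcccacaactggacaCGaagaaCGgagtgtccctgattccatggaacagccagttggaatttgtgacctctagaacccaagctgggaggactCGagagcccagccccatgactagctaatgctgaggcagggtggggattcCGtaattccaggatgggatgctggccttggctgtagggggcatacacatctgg
The Srd5a1 window holds 24 CpG at 63.0% GC and the Hsd17b12 window 23 at 51.0% GC, and 81.6% and 80.0% of all 32851 windows hold as many or fewer. The Hsd11b1 window holds 6 CpG at 54.7% GC, against a median of 7 CpG and 52.7% GC over all windows. The most upstream Cyp19a1 window also holds 6, and the other starts of that gene hold 6 at 38.3% GC and 2 at 37.7% GC. The letters TATAAA, searched on both strands, stand in the windows of those other Cyp19a1 starts, in none of the 4 printed ones, and in 13.6% of all windows. These are descriptions of sequence; UMIs counted from the 3′ end do not show which start was used.

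Cells were kept with at least 500 genes and at most 20% mitochondrial UMIs, which left 30824 of 31299 barcodes, and 479 barcode sequences occurred in more than 1 library. Kept cells per library were 4630, 9749 and 410 in female replicates 1 to 3 and 7264, 6809 and 1962 in male replicates 1 to 3, with median depths of 2684 to 6757 UMIs in female and 3628.5 to 5542 UMIs in male libraries. Female replicate 3 stands apart in size and depth, and it gave too few cells (under 10) for sums of excitatory neurons, newly formed oligodendrocytes and mural cells. Classes were set from the UMIs of fixed marker genes and none of the described genes was a marker, so a class name stands for a marker profile rebuilt here; the authors' own cell labels were not used here. The classes held 14574 inhibitory, 1604 excitatory and 1986 other neurons, 1514 oligodendrocyte precursors, 351 newly formed and 6794 mature oligodendrocytes, 688 astrocytes, 769 microglia, 359 endothelial, 417 mural, 49 fibroblast and 36 border-associated macrophage-like cells, and 1628 cells had no class. Many genes that led these classes were markers that set them, for example Ly6c1 and Cldn5 in endothelial cells, so they do not test the names. A further 35 cells with markers of dividing cells, led by the neutrophil genes S100a8 and Ngp, and 10 ependymal, 9 red blood and 1 neutrophil cells by markers, were not tested as classes and are counted only where all cells of other classes are pooled. The cells left over as other neurons, with neither transmitter marker clearly higher, were led by Gnrh1, Oxt and Trh.

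Over all kept cells there were 23915 UMIs of Hsd17b12 in 14404 cells, 4309 of Srd5a1 in 3394 cells, 1935 of Tspo in 1373 cells, 329 of Hsd11b1 in 282 cells, 139 of Star in 137 cells and 98 of Cyp19a1 in 93 cells. A level is given below as CPM, the gene's UMIs divided by all UMIs of the same cells in 1 library and scaled to 1000000. Counts of this size set the precision: Hsd17b12 could be measured in every class, Srd5a1 and Tspo in most, and Hsd11b1, Star and Cyp19a1 mainly as sums over many cells. Intervals and floors given below cover counting error only. Hsd17b12, Srd5a1, Tspo and Hsd11b1 passed the filter on low counts in the comparison of 10 classes, and Cyp19a1 and Star did not. In that comparison each class was set against the mean of the other 9 with edgeR's quasi-likelihood test, with p-values adjusted over 11301 genes. Its log2 changes use edgeR's TMM scaling, so their order over classes can differ from that of the CPM.

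**Figure D1:**
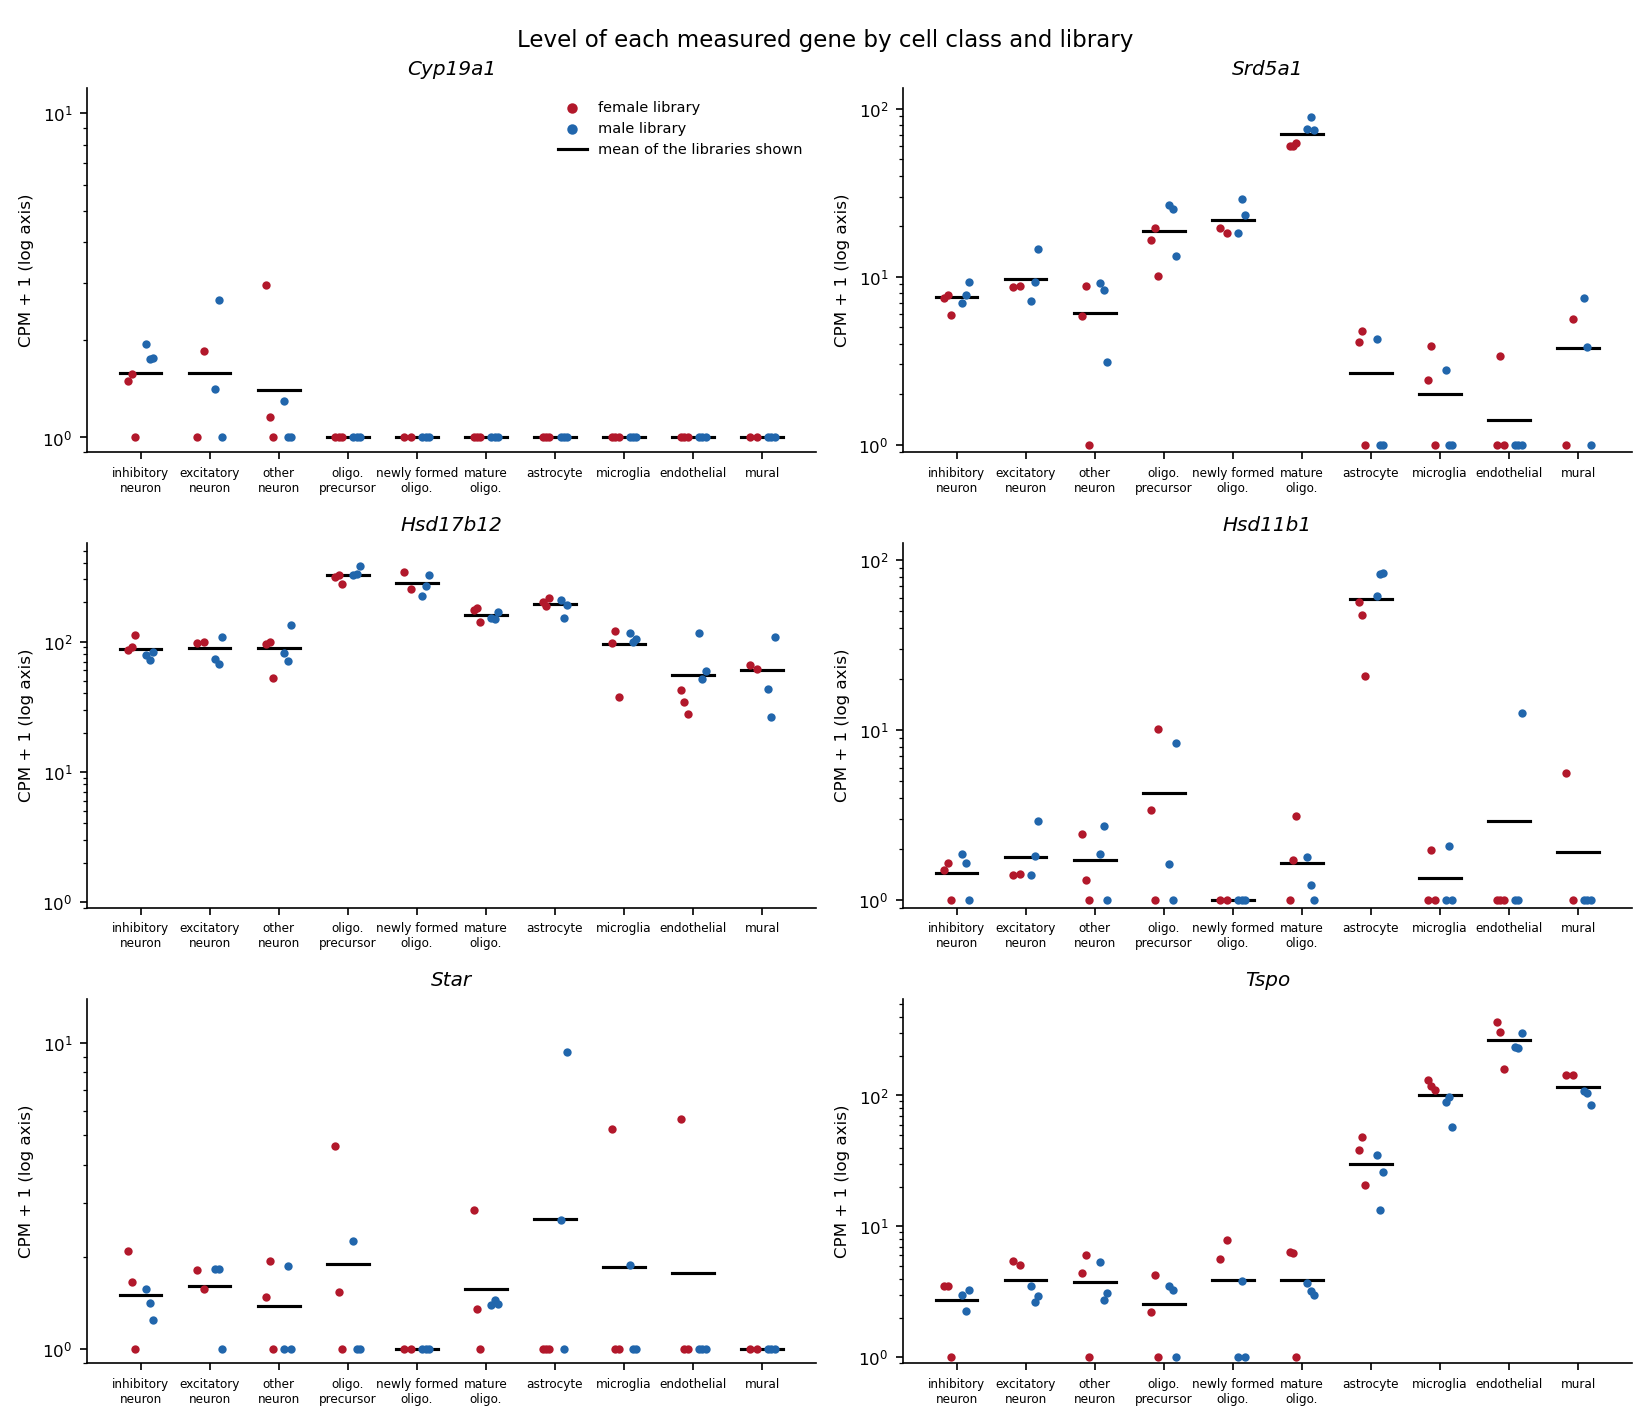
Level of each of the 6 genes in 10 cell classes. The vertical axis is CPM + 1 on a log scale, each point is 1 library (female red, male blue), and the bar is the mean of the libraries shown. Tspo is highest in endothelial cells, Srd5a1 in mature oligodendrocytes, Hsd17b12 in oligodendrocyte precursors and Hsd11b1 in astrocytes, and Cyp19a1 has points above the floor of the axis in neurons only.

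Tspo was highest in cells of the vessel wall and in microglia and very low in neurons. Its level in the 6 libraries ran from 159 CPM through a median of 267 to 366 CPM in endothelial cells, from 56.2 through 103 to 130 CPM in microglia, and in 5 libraries from 83.2 through 106 to 143 CPM in mural cells (pericytes and smooth muscle). In astrocytes it ran from 12.4 through 29.6 to 46.8 CPM, and over all neurons from 0 through 2.24 to 2.99 CPM. Every endothelial value lay above every microglial and mural value, every astrocyte value lay below all of these, and every neuronal value lay below every astrocyte value. Endothelial cells averaged 266 ± 73.0 CPM (SD, n = 6) and stood 5.05 ± 0.14 (SE) above the mean of the other classes on the log2 scale (edgeR, adjusted p = 7.6e-49), with microglia at +4.17 ± 0.13 (adjusted p = 6.5e-46), mural cells at +3.81 ± 0.18 (adjusted p = 7.9e-33) and astrocytes at +1.62 ± 0.23 (adjusted p = 4.6e-09). Tspo was lower than that mean in the other 6 classes, with log2 changes between -3.13 ± 0.21 in inhibitory neurons and -1.57 ± 0.18 in mature oligodendrocytes.

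By share of cells, 53.8% of endothelial cells and 38.8% of microglia held at least 1 Tspo UMI, against 1.67% of neurons, at median depths of 3312, 5062 and 7166 UMIs. After thinning each cell to 2000 UMIs the shares were 41.5% in endothelial cells, 18.2% in microglia and 0.484% in neurons. In inhibitory neurons the summed UMIs of endothelial markers were 37.9 to 63.2 CPM, against 20762 to 29508 CPM in endothelial cells, and those of microglial markers 31.9 to 107 CPM, against 26327 to 34960 CPM in microglia, all markers of both lists being detected there. The part of such stray RNA in the neuronal Tspo level was not tested. Small classes carried Tspo as well: fibroblast-like cells held 38 UMIs in 49 cells, a pooled level of 178 CPM (95% Poisson interval 126 to 245), and macrophage-like cells 20 UMIs in 36 cells, 166 CPM (101 to 256). Cells with no class, most of which carried markers of several classes, held 16.2% of all Tspo UMIs and 6.2% of all UMIs.

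Among the proteins that bind Tspo or work with it, Dbi, the acyl-CoA binding protein whose peptides are Tspo ligands, followed another order. It averaged 4548 CPM in oligodendrocyte precursors, 2910 CPM in astrocytes and 1612 CPM in mature oligodendrocytes, which were 3.21 ± 0.07, 2.79 and 2.35 above the mean of the other classes on the log2 scale, and was lower in endothelial cells (log2 change -0.89), microglia (-0.62) and inhibitory neurons (-2.12). Bzrap1, which encodes a Tspo-associated protein, was higher in inhibitory neurons (log2 change +1.77) and astrocytes (+1.69) and lower in mural cells (-3.86). Of the 9 listed partner genes 8 were in the table and tested, and the counts called higher and lower were 0 and 4 in endothelial cells, 3 and 3 in microglia, 3 and 2 in mural cells, 4 and 4 in oligodendrocyte precursors and 4 and 3 in inhibitory neurons. Over all 11301 genes, 51.9% were called in one direction or the other in endothelial cells, 66.1% in microglia, 45.1% in mural cells, 58.0% in oligodendrocyte precursors and 74.9% in inhibitory neurons, so a call by itself is common in this comparison.

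Endothelial cells, microglia and mural cells were also high in genes induced by cell dissociation and early response genes. Of the 10 listed, 9 were called higher and 0 lower in each of these 3 classes, with median log2 changes of +2.87, +2.65 and +1.90, while in astrocytes 0 were higher and 7 lower. Over all genes, 51.9% were called in endothelial cells, 66.1% in microglia, 45.1% in mural cells and 50.8% in astrocytes, in either direction. The summed level of the listed genes was 8704 to 17053 CPM in endothelial cells, 5452 to 19770 CPM in microglia and 1138 to 1985 CPM in inhibitory neurons. Within microglia the level of Tspo was also compared between cells with high and low chemokine UMIs. All of these cells had been dissociated, so the split does not compare them with undissociated microglia. Microglia were split at the median of their Ccl3 and Ccl4 UMIs, chemokines that rise in dissociated microglia, into 379 cells of a high and 378 of a low group over all 6 libraries. The 5 libraries with at least 10 cells in each group were compared. Tspo was 58.1, 102 and 105 CPM at its lowest, median and highest in the high group and 56.1, 102 and 159 CPM in the low group, and the 2 groups overlapped (log2 change -0.03 ± 0.17, edgeR, adjusted p = 0.968). Hsd17b12 was 103, 116 and 137 CPM in the high group and 37.4, 92.0 and 106 CPM in the low group (log2 change +0.39 ± 0.15, adjusted p = 0.150). Neither passed in this comparison, in which 5.75% of 4154 genes did.

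Star was near its counting limit in every class. Its 139 UMIs lay almost 1 to a cell, in 0.512% of neurons and 0.326% of cells of other classes before thinning, and in 0.0723% and 0.103% after it. The pooled level was 0.654 CPM in neurons (95% Poisson interval 0.529 to 0.799) and 0.628 CPM in the other classes (0.440 to 0.870), and neurons held 68.3% of Star UMIs and 67.3% of all UMIs. No Star UMI was found in mural cells or newly formed oligodendrocytes, where 3 UMIs would have been 2.1 CPM and 1.3 CPM.

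Of the genes that supply or move cholesterol, of which 11 of 12 were tested, 6 were called higher and 0 lower in astrocytes, 7 and 4 in microglia, 5 and 3 in endothelial cells, 0 and 8 in mural cells and 1 and 9 in inhibitory neurons. The shares over all genes were 50.8%, 66.1%, 51.9%, 45.1% and 74.9% in these 5 classes, so the astrocyte count is near the share of all genes. Apoe, the main cholesterol carrier made in brain, averaged 27123 CPM in astrocytes (log2 change +5.41), and Abca1, which loads it, and Soat1, which esterifies cholesterol, were higher there too (+3.29 and +3.48). The lysosomal genes Npc2 and Lipa were higher in microglia (+3.45 and +3.46), and the late endosomal genes Stard3 and Npc1 in mature oligodendrocytes (+2.57 and +2.09). Scarb1, the receptor that takes up cholesterol from lipoprotein, was higher in endothelial cells (+2.73).

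Cyp19a1 UMIs were rare and all of those in classed cells lay in neurons. The level in inhibitory neurons ran from 0 through 0.660 to 0.943 CPM over the 6 libraries, in excitatory neurons from 0 through 0.413 to 1.65 CPM over 5, and in other neurons from 0 through 0.0781 to 1.94 CPM over 6. These 3 ranges overlapped, and female replicate 3, with the fewest cells, held no Cyp19a1 UMI. In all neurons together there were 95 UMIs in 91 of 18164 cells (0.501%, and 0.134% after thinning), a pooled level of 0.654 CPM (95% Poisson interval 0.529 to 0.799). In the 11032 cells of the other classes, at a median depth of 4459.5 UMIs against 7166 in neurons, there were 0 UMIs, and a floor of 3 UMIs over that group is 0.0524 CPM. The neuronal level of 0.654 CPM was 12.5-fold above that floor, a ratio that leaves out the counting error of the neurons. Of the 91 cells, 75 were inhibitory, 10 excitatory and 6 other neurons, and 2 further cells with a UMI had no class. Only 5 of all cells with Cyp19a1 held 2 or more UMIs, so a neuron without a UMI is not shown to lack the transcript.

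Srd5a1 was highest in mature oligodendrocytes. There it ran from 58.6 through 67.4 to 88.1 CPM over 6 libraries, in newly formed oligodendrocytes from 17.2 through 18.6 to 28.0 CPM over 5, in oligodendrocyte precursors from 9.16 through 17 to 25.7 CPM, and in inhibitory neurons from 4.91 through 6.62 to 8.28 CPM. Every mature value lay above every value of any other class, precursors and newly formed cells overlapped, and every inhibitory value lay below every precursor value. Mature oligodendrocytes averaged 69.2 ± 11.7 CPM (SD, n = 6), 4.27 ± 0.10 above the mean of the other classes on the log2 scale (edgeR, adjusted p = 2.7e-53), and held 66.8% of all Srd5a1 UMIs on 18.3% of all UMIs. Newly formed cells stood at +1.68 ± 0.30 and precursors at +1.55 ± 0.22, while the 3 neuron classes were not called (inhibitory log2 change -0.23 ± 0.25, adjusted p = 0.419).

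In the other classes Srd5a1 was close to the limit of detection, with 5 UMIs in 688 astrocytes, 6 in 769 microglia, 1 in 359 endothelial cells, 5 in 417 mural cells and 0 in fibroblast- and macrophage-like cells. Astrocytes, microglia and endothelial cells were called lower (edgeR, adjusted p = 0.0341, 0.0151 and 0.00213), and the mural value was not (0.345). The 3 calls on 1 to 6 UMIs were lost under some other settings, as given in the closing part. By share of cells, 30.3% of mature oligodendrocytes and 5.05% of inhibitory neurons held an Srd5a1 UMI at median depths of 4861 and 7154, and 13.2% and 1.28% after thinning. Summed markers of mature oligodendrocytes in inhibitory neurons were 209 to 908 CPM, against 59084 to 83622 CPM in mature oligodendrocytes, and their part in the neuronal Srd5a1 level was not tested.

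Hsd17b12 was found in every class and was highest in the early oligodendrocyte lineage. It ran from 275 through 326 to 380 CPM in precursors, from 225 through 266 to 344 CPM in newly formed oligodendrocytes, from 152 through 195 to 217 CPM in astrocytes and from 139 through 160 to 179 CPM in mature oligodendrocytes. In microglia it ran from 36.3 through 101 to 118 CPM, in inhibitory neurons from 71.3 through 84.1 to 110 CPM, in mural cells from 25.1 through 60.0 to 107 CPM and in endothelial cells from 26.5 through 46.1 to 116 CPM. Every precursor and newly formed value lay above every value of astrocytes and mature oligodendrocytes, and every one of those lay above all values of neurons, microglia and vessel cells. The log2 change against the mean of the other classes was +1.34 ± 0.07 in precursors, +1.17 ± 0.10 in newly formed cells, +0.98 ± 0.07 in mature cells, +0.80 ± 0.11 in astrocytes and +0.61 ± 0.11 in microglia. It was -0.86 ± 0.07 in inhibitory, -0.82 ± 0.09 in excitatory and -0.78 ± 0.09 in other neurons, -1.17 ± 0.19 in mural and -1.27 ± 0.20 in endothelial cells, and all 10 passed (edgeR, largest adjusted p = 1.4e-06). These changes rest on TMM-scaled sums, and their order is not that of the CPM. Microglia averaged 94.7 CPM and excitatory neurons 88.5 CPM, with microglia higher in only 3 of 5 libraries. Astrocytes averaged 192 CPM and mature oligodendrocytes 160 CPM, with astrocytes higher in 6 of 6 libraries. By share, 71.4% of precursors and 42.0% of inhibitory neurons held a UMI, and 46.4% and 14.8% after thinning.

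Hsd11b1 was highest in astrocytes and in fibroblast-like cells. In astrocytes it ran from 19.7 through 58.2 to 83.0 CPM over the 6 libraries (mean 58.0 ± 23.7, SD), with 124 UMIs in 101 of 688 cells. Precursors were next and ran from 0 through 1.52 to 9.16 CPM, and every astrocyte value lay above every value of the other 9 classes tested. The astrocyte class was called higher (edgeR, adjusted p = 7.1e-32) and no other class was called; no fold change is given because newly formed oligodendrocytes held 0 UMIs. Fibroblast-like cells, too few for the test, held 32 UMIs in 17 of 49 cells, a pooled 150 CPM (95% Poisson interval 103 to 212), and the 2 libraries with enough of them held 74.3 and 132 CPM. Summed fibroblast markers were 15.6 to 32.4 CPM in astrocytes, with 3 of the 6 markers at 0, so they were present at a low level. Astrocytes held 37.7% of Hsd11b1 UMIs on 0.9% of all UMIs, and cells with no class 14.3% of them. In neurons 95 UMIs gave a pooled 0.654 CPM and 28.9% of all Hsd11b1 UMIs, and 0.506% of neurons held one, against 14.7% of astrocytes.

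Counted by class, 4 of the 4 tested genes were called in astrocytes, where 50.8% of all genes were, and 3 of 4 in endothelial cells (51.9%), microglia (66.1%), oligodendrocyte precursors (58.0%), newly formed oligodendrocytes (51.1%) and mature oligodendrocytes (74.8%). In mural cells 2 of 4 were called (45.1%), as in inhibitory (74.9%), excitatory (71.8%) and other neurons (71.8%). Between inhibitory and excitatory neurons none of the 4 was called, against 16.4% of all genes. Tspo came closest there, with a log2 change of -0.60 ± 0.25 (inhibitory minus excitatory, adjusted p = 0.0889), Srd5a1 had -0.23 ± 0.17 (0.409) and Hsd17b12 -0.04 ± 0.09 (0.841). Neighbours in the order of class levels were compared within libraries over 54 pairs by exact permutation test, and 11 pairs kept 1 direction in every library. The smallest p is 0.031 with 6 libraries and 0.0625 with 5, and the smallest adjusted p was 0.281. Too few of the 54 pairs had 6 libraries for any step to pass after adjustment, so the test cannot tell steps that differ from those that do not. The steps at the smallest p included astrocytes over precursors for Hsd11b1 and microglia over astrocytes for Tspo.

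Levels were also compared across 12 groups of cells (cell classes and oligodendrocyte stages) and 12818 genes. Those most like Tspo were Itpripl2 (r = 0.984), Trim47 (0.982) and Fcgrt (0.973). Those most like Srd5a1 were Kcna1 (0.982), Ano4 (0.973) and Pigz (0.966). Most like Hsd17b12 was Nkx2-2 (0.960), most like Hsd11b1 Nat8 (0.963), and most like Cyp19a1 Syt1 (0.985). Syt1 is a marker that set the neuron class, so its likeness to a gene counted only in neurons follows from how the classes were made. Star had no close match, with Thrsp at 0.846. These are Pearson correlations of log levels that share libraries and depth, given as a description.

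The other enzymes of steroid and oxysterol conversion differed in the classes where they were high, and many were scarce. Of 28 listed genes 27 were in the table and 12 were tested, and the numbers called higher and lower were 8 and 1 in astrocytes, 6 and 4 in mature oligodendrocytes, 6 and 4 in microglia, 6 and 3 in precursors, 4 and 5 in endothelial cells and 2 and 8 in inhibitory neurons. Over all genes 50.8% were called in astrocytes, 74.8% in mature oligodendrocytes, 66.1% in microglia, 58.0% in precursors, 51.9% in endothelial cells and 74.9% in inhibitory neurons, so the counts in mature oligodendrocytes and inhibitory neurons are near the share of all genes. Their median log2 change was 0.77 in astrocytes, against -0.08 over all genes, and -0.90 in inhibitory neurons, against 0.05. Akr1c14, which acts after Srd5a1 to make tetrahydro-steroids, averaged 42.7 CPM in endothelial and 13.8 CPM in mural cells and at most 0.153 CPM in any other class, with 0 UMIs in astrocytes and microglia. Ch25h, which makes an oxysterol, averaged 52.0 CPM in endothelial cells, 1.67 CPM in microglia and 0 in astrocytes, and the sulfotransferase Sult1a1 was higher in endothelial cells (76.0 CPM, log2 change +5.54), microglia (+4.83) and astrocytes (+4.14). Cyp7b1, which hydroxylates oxysterols and DHEA, averaged 85.1 CPM in astrocytes (+3.94 ± 0.17).

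Cyp27a1, a mitochondrial sterol hydroxylase, averaged 32.4 CPM in mature oligodendrocytes (log2 change +4.13 ± 0.13) and was higher in newly formed cells (+3.33) and microglia (+2.60). Cyp46a1, the cholesterol hydroxylase of neurons, averaged 119 CPM in inhibitory neurons (+2.25 ± 0.08). Hsd17b7, which works in both cholesterol and estradiol synthesis, averaged 127 CPM in newly formed oligodendrocytes (+3.26 ± 0.18), and Srd5a3, a relative of Srd5a1 used in glycosylation, 45.5 CPM in mature oligodendrocytes (+1.74 ± 0.08). The enzymes that begin steroid synthesis were scarce: the mean level of Cyp11a1, Cyp17a1, Cyp11b1 and Cyp21a1 was at most 0.58 CPM in any class, that of Cyp11a1 in other neurons, and Hsd3b1, Hsd3b6, Hsd17b3 and Srd5a2 were at 0 in all. Of 5 tested redox partners, 4 were higher and 1 lower in astrocytes, where 50.8% of all genes were called, and 0 and 3 in inhibitory neurons, where 74.9% were. Por, the electron donor of microsomal P450 enzymes including aromatase, was higher in microglia (+2.60 ± 0.08). Among 4 tested steroid receptors 3 were higher and 1 lower in inhibitory neurons (74.9% of all genes called), where Pgr, the progesterone receptor, stood at +2.98, and Nr3c1, the glucocorticoid receptor, was higher in endothelial cells (+1.34).

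**Figure D2:**
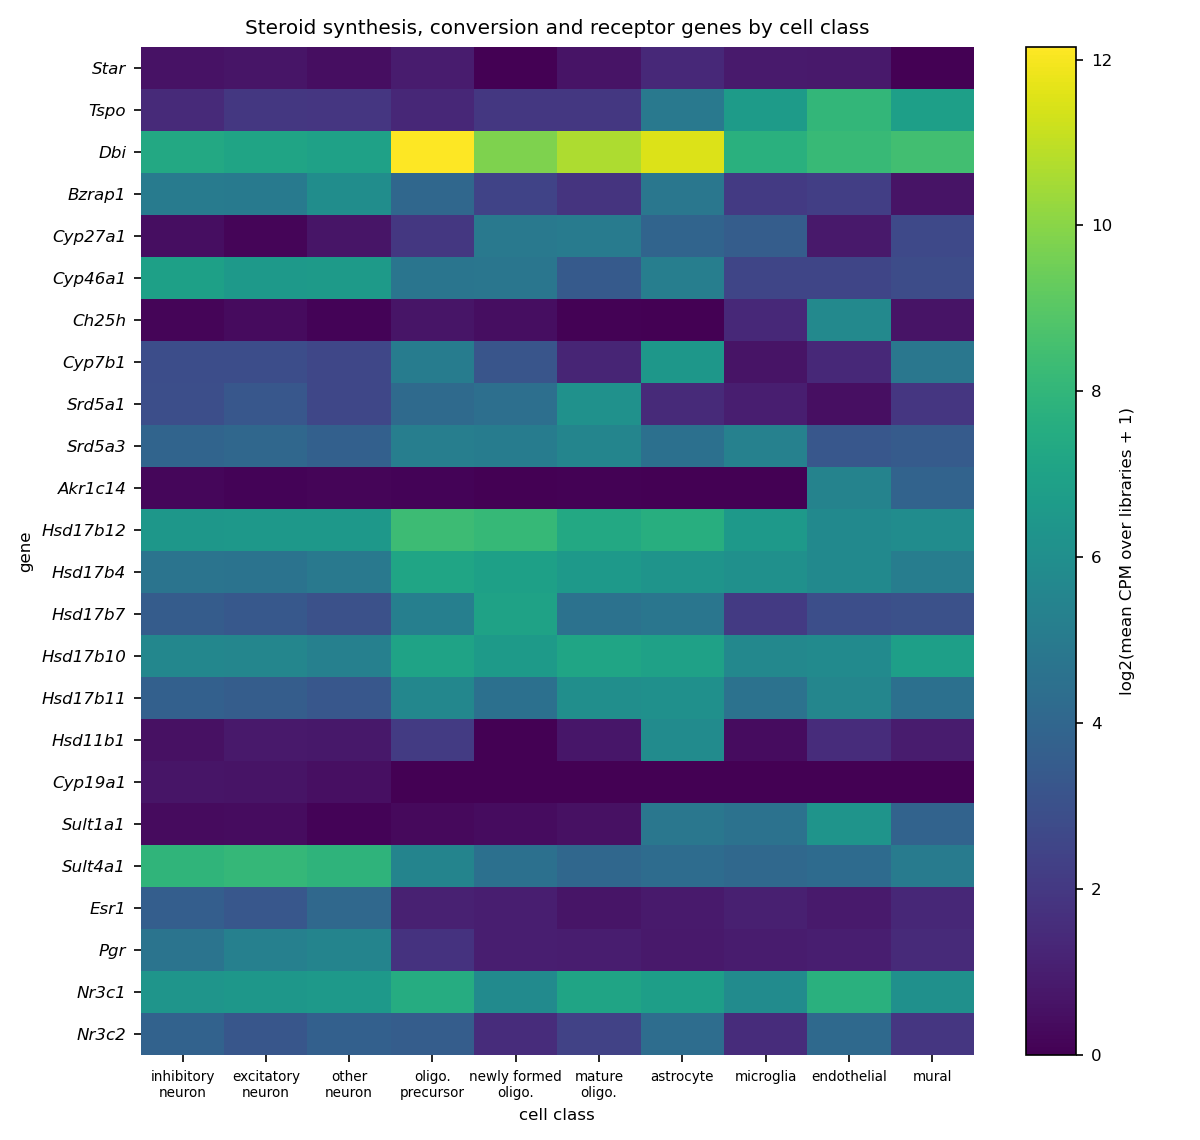
Mean level of steroid synthesis, conversion and receptor genes (rows) in 10 cell classes (columns), coloured by log2(mean CPM over libraries + 1). Srd5a1 and Cyp27a1 are bright in mature oligodendrocytes, Akr1c14 and Ch25h in endothelial cells, Cyp46a1 in neurons, and Dbi in precursors and astrocytes.

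Along the oligodendrocyte lineage Srd5a1 and Hsd17b12 moved in opposite directions at the onset of myelination. Mature cells were sorted by marker scores into an early myelinating stage (1172 cells), a mature stage marked by Il33 (1140 cells) and a mature stage marked by Klk6 and Anln (1339 cells), and 1862 of 6794 mature cells lay near a limit of these scores. In early myelinating cells Srd5a1 ran from 79.2 through 89.9 to 102 CPM over 6 libraries, in Il33 cells from 51.7 through 65.5 to 91.9 CPM and in Klk6 and Anln cells from 43.3 through 47.1 to 56.3 CPM. Every early value lay above every value of newly formed cells and of Klk6 and Anln cells, and Il33 cells overlapped both mature neighbours. Srd5a1 was 2.30 ± 0.17 higher in early myelinating than in newly formed cells on the log2 scale (edgeR, adjusted p = 4.0e-18, over 9149 genes), where 55.6% of genes were called. It fell by 0.32 ± 0.10 in Il33 relative to early cells (adjusted p = 0.0190, 13.8% called) and by 0.56 ± 0.11 in Klk6 and Anln relative to Il33 cells (adjusted p = 7.5e-05, 10.9% called). Between newly formed cells and precursors it had a log2 change of +0.03 ± 0.22 (adjusted p = 0.948). The lower value of Il33 relative to early myelinating cells lost its call without female replicate 1 (adjusted p = 0.117) and without female replicate 2 (0.171).

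Hsd17b12 ran from 117 through 136 to 178 CPM in early myelinating cells, from 140 through 191 to 215 CPM in Il33 cells and from 123 through 158 to 180 CPM in Klk6 and Anln cells. Every early value lay below every newly formed value, and the 3 mature stages overlapped. It fell by 0.80 ± 0.09 in early myelinating relative to newly formed cells (edgeR, adjusted p = 1.4e-10), was 0.53 ± 0.08 higher in Il33 than in early cells (adjusted p = 1.8e-06) and fell by 0.31 ± 0.08 in Klk6 and Anln relative to Il33 cells (adjusted p = 0.00676). The step between newly formed cells and precursors was small, a log2 change of -0.26 ± 0.09 (adjusted p = 0.0118, 49.1% of genes called), and it was lost without female replicate 2, female replicate 3 or male replicate 1. With every cell thinned to 2000 UMIs the early step was -0.35 (adjusted p = 0.0594). Early response genes moved along the stages too, with 0 higher and 7 lower of 10 in newly formed cells relative to precursors, 8 and 0 in early relative to newly formed cells, and 7 and 0 in Klk6 and Anln relative to Il33 cells. Over all genes 49.1%, 55.6% and 10.9% were called in these steps, in the same order. The part of the early response genes in the stage differences was not tested.

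Some other genes of the pathway were also called between stages. Of 9 other enzymes tested, 2 were called higher and 4 lower in newly formed cells relative to precursors, 2 and 4 in early relative to newly formed cells, 1 and 1 in Il33 relative to early cells, and 2 and 0 in Klk6 and Anln relative to Il33 cells. Over all genes 49.1%, 55.6%, 13.8% and 10.9% were called in these steps, in the same order. Cyp27a1 was higher in newly formed cells than in precursors (log2 change +2.88) and again in Klk6 and Anln than in Il33 cells (+1.55 ± 0.17). Hsd17b7 was higher in newly formed cells (+1.47) and lower in early (-1.43) and Il33 cells (-1.26), each relative to the stage before. Dbi was lower in newly formed cells (-2.31) and higher in early (+0.75) and Il33 cells (+0.53), in the same terms.

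**Figure D3:**
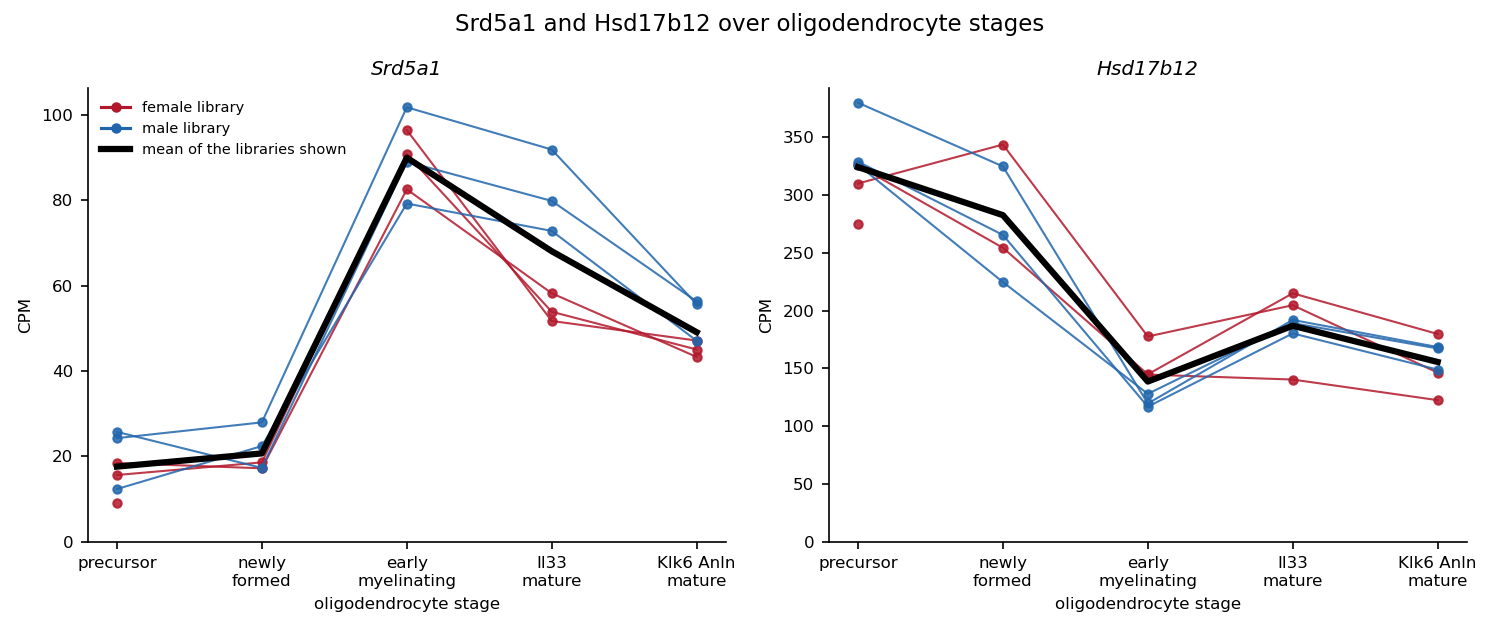
Srd5a1 (left) and Hsd17b12 (right) in CPM over 5 oligodendrocyte stages. Thin lines join the values of 1 library (female red, male blue) and the thick line is the mean of the libraries shown; female replicate 3 has no newly formed value. Srd5a1 stands at 79.2 to 102 CPM in early myelinating cells and Hsd17b12 at 275 to 380 CPM in precursors.

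Among the genes called in neurons with a Cyp19a1 UMI relative to other neurons, Frem3, Gldn, Prox1 and Gal were higher and Vip, Avp and Sst lower. Of the 91 cells, those in the 4 libraries that held at least 10 (14 to 32 in each) were summed per library and set against all neurons of that library without a UMI. The comparison is of cells in which the transcript was caught, at a median depth of 11570 UMIs against 7146 in the rest. With the library as a block in edgeR, 270 of 13573 genes were called (1.99%), 116 higher and 154 lower, and 221 of them moved in the same direction in all 4 libraries. Thinned to 2000 UMIs, the comparison called 63 genes, and without female replicate 2 it called 144.

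Gal, which encodes the peptide galanin, was at 294, 997, 1095 and 863 CPM in neurons with a Cyp19a1 UMI (female replicates 1 and 2, then male replicates 1 and 2), against 253, 324, 239 and 166 CPM in neurons without one. It was higher in each library (log2 change +1.73 ± 0.09), by little in female replicate 1. The SE is that of the fit and does not cover how far these libraries differ. A Gal UMI was in 37.4% of cells with and 24.4% without, shares not thinned to equal depth. Frem3, an extracellular matrix gene, was at 36.8, 16.2, 11.6 and 26.8 CPM with and 1.63 to 2.62 CPM without a UMI (+3.29 ± 0.52), and no value of the 2 groups overlapped. Gldn, which encodes the cell adhesion protein gliomedin, was at 81.0, 41.7, 23.2 and 10.7 CPM with and 4.90 to 6.76 CPM without (+2.61 ± 0.37). A Gldn UMI was in 24.2% of cells with and 3.65% without, and in 6.59% and 1.07% after thinning. Gldn lies near Cyp19a1 on chromosome 9, at 54286486-54341786 on the plus strand, 18.4 kb away. Gldnos, at 54268578-54301570 on the minus strand, starts in the gap between them and overlaps Gldn, and it had 0 UMIs in the 10 classes.

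Prox1, a transcription factor gene, was at 19.4 to 46.4 CPM with and 7.71 to 8.73 CPM without a Cyp19a1 UMI (log2 change +2.02 ± 0.36), and its antisense RNA Prox1os was higher as well (+2.33), the reads of which cannot be told apart from those of Prox1 where counting ignored strand. Scgn, a calcium-binding protein gene, was at 7.36 to 62.6 CPM with and 4.60 to 5.90 CPM without (+2.50). Aldh3b2, an aldehyde dehydrogenase gene, was at 36.8 to 64.3 CPM with and 12.6 to 16.2 CPM without (+1.75), and Rnase6 (+2.26), Gpd1 (+2.14) and AI467606 (+1.89) complete the 10 highest. For each of these genes every library's value was higher with a UMI than without.

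On the lower side 8 of the 10 genes with the largest change were at 0 UMIs in neurons with Cyp19a1, among them Lhx1os, Zic5, Slc10a4, P2ry1, Prokr2, Epb41l2 and Syt2. They are given no fold change; Lhx1os, an antisense RNA at the Lhx1 gene, was at 10.8 to 19.3 CPM without a UMI, and Zic5, a zinc finger transcription factor gene, at 13.4 to 14.6 CPM. Vip, a neuropeptide gene, was at 0 to 6.96 CPM with and 28.7 to 132 CPM without (log2 change -4.60 ± 0.39), and Avp, which encodes vasopressin, at 5.36 to 53.3 CPM with and 325 to 1199 CPM without (-4.22 ± 0.17). The share of cells with an Avp UMI was 33.0% with and 30.4% without before thinning, and 5.49% and 12.6% after it. For neither gene did the 2 groups overlap.

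Of 28 listed preoptic marker, peptide and receptor genes, 8 were called higher and 10 lower. Prlr, the prolactin receptor, was at 140, 155, 170 and 145 CPM with and 83.2 to 89.3 CPM without a Cyp19a1 UMI (log2 change +0.82 ± 0.15), with no overlap. Th, the enzyme of catecholamine synthesis (+1.47), Moxd1 (+1.83), Tac1 (+0.48) and Cartpt (+0.57) were called higher while 1 library in each went the other way, and Cck (+0.61) while 2 did. Sst (-3.50 ± 0.16), Trh (-2.89), Lhx8 (-2.67), Tac2 (-1.92), Adcyap1 (-1.69), Penk (-1.61) and Crh (-1.14) were lower in every library, and Nts (-1.31) in 3 of 4. Esr1, the estrogen receptor alpha, had a log2 change of +0.20 ± 0.45 and did not pass (adjusted p = 0.932). Of the described genes, Hsd17b12 (+0.02 ± 0.17) and Srd5a1 (+0.22 ± 0.61) did not pass, no early response gene was called, and 1 of 9 other enzymes was called higher.

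**Figure D4:**
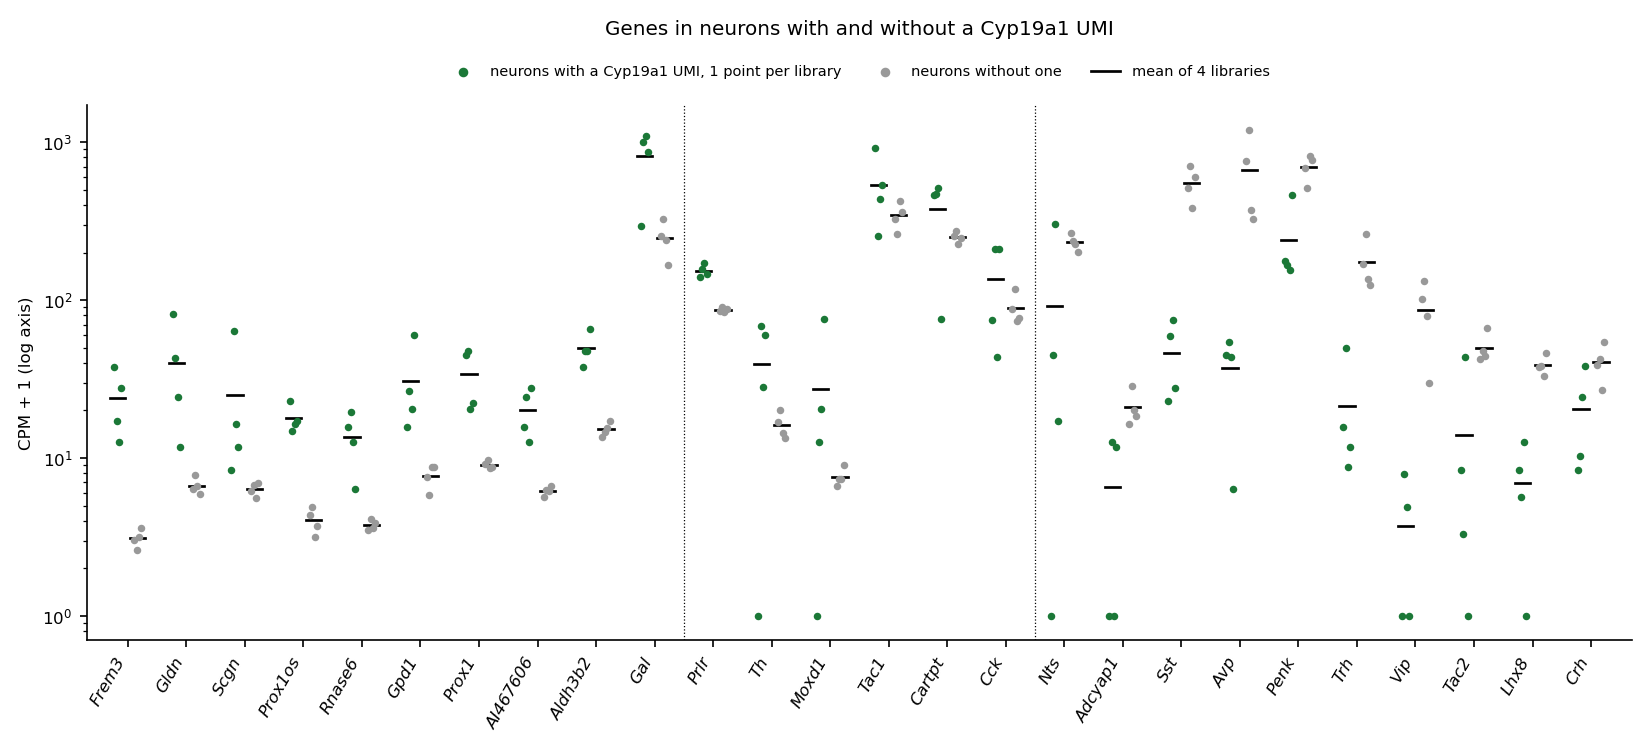
Level of genes in neurons with a Cyp19a1 UMI (green) and in neurons without one (grey), as CPM + 1 on a log axis, with 1 point for each of 4 libraries and a bar at their mean. The left block holds the 10 genes with the largest rise, the middle block other listed genes called higher and the right block listed genes called lower; Gal stands at 294 to 1095 CPM with a UMI and 166 to 324 CPM without.

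The same comparison for the other scarce transcripts called fewer genes. There were 92 neurons with an Hsd11b1 UMI, at a median depth of 10072.5 UMIs. Those in the 4 libraries that held 14 to 34 each differed from the rest in 56 of 13569 genes (0.413%), 39 of these genes in 1 direction in all 4 libraries. Npy (log2 change -3.75), Sst (-3.70) and Avp (-1.63) were lower and Penk (+1.1) and Apoe (+0.90) higher. Of the 93 neurons with a Star UMI, those in the 4 libraries that held 13 to 39 each differed in 51 of 13587 genes (0.375%), 29 of these genes in 1 direction in all 4 libraries. There 5 of the 10 early response genes were higher, among them Hspa1a (+1.08), Fos (+1.00), Fosb (+0.81) and Junb (+0.64), and Gal was lower (-1.61).

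Between the sexes none of the genes passed edgeR's test without a block, with adjustment over all genes, in any class or over all cells. With the replicate number as a block Hsd17b12 passed in inhibitory and excitatory neurons, as given below. Without the block few genes were called: 0.0434% over all cells, 0.0547% in inhibitory, 0.0613% in excitatory and 0.0903% in other neurons, 0.0629% in oligodendrocyte precursors, 0.0559% in newly formed and 0.0626% in mature oligodendrocytes, 0.0733% in astrocytes, 0.0811% in microglia, 0.0586% in endothelial and 0.0809% in mural cells. Of 3 against 3 libraries, the smallest 2-sided exact permutation p is 0.1, as it is for 2 against 3, so that test cannot reach 0.05. Groups that do not overlap are common at this size: 6.7% of genes over all cells, 13.3% in inhibitory neurons, 10.1% in other neurons and 8.68% in mature oligodendrocytes had no overlap between female and male libraries.

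Tspo over all cells was at 11.8, 9.47 and 12.9 CPM in female and 7.31, 7.81 and 7.75 CPM in male libraries, so every female value lay above every male one. The log2 change was +0.52 ± 0.17 (edgeR, unadjusted p = 0.0182, adjusted p = 1; exact permutation p = 0.1), and +0.46 without female replicate 3. Summed endothelial markers over all cells were 212 to 969 CPM in female and 171 to 311 CPM in male libraries, and endothelial cells made up 0.974 to 6.34% of female and 0.606 to 1.83% of male cells. Within microglia Tspo was 130, 117 and 109 CPM in female and 87.4, 97.2 and 56.2 CPM in male libraries, without overlap where 7.67% of genes had none (log2 change +0.40 ± 0.25, adjusted p = 0.999). Within mural cells it was 143 and 143 CPM in female and 106, 103 and 83.2 CPM in male libraries, again without overlap where 19.6% of genes had none (+0.50 ± 0.28, adjusted p = 0.961). Summed microglial markers in those mural cells were 199 to 224 CPM in female and 47.5 to 100 CPM in male libraries, and their part in it was not tested. In excitatory neurons Tspo was 4.45 and 4.11 CPM in female and 2.48, 1.65 and 1.93 CPM in male libraries, without overlap where 21.7% of genes had none, and it was too low there for the fit. In endothelial cells the sexes overlapped, with 366, 306 and 159 CPM in female and 232, 231 and 301 CPM in male libraries.

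Srd5a1 in mature oligodendrocytes was at 58.6, 59.3 and 61.2 CPM in female and 74.8, 88.1 and 73.5 CPM in male libraries, means of 59.7 ± 1.37 and 78.8 ± 8.11 CPM (SD, n = 3 each). Every female value lay below every male one, with a log2 change of -0.44 ± 0.14 (edgeR, unadjusted p = 0.0118, adjusted p = 1; exact permutation p = 0.1). Early myelinating cells, the stage with the most Srd5a1, made up 8.15 to 15.0% of mature oligodendrocytes in female and 18.1 to 21.6% in male libraries. Split by stage, a split chosen after its values were seen, Srd5a1 in early cells was 90.8, 82.5 and 96.4 CPM in female and 89.0, 102 and 79.2 CPM in male libraries and overlapped. In Il33 cells it was 53.9, 58.2 and 51.7 CPM in female and 79.8, 91.9 and 72.8 CPM in male libraries, without overlap where 7.06% of 9149 genes had none (exact permutation p = 0.1). In Klk6 and Anln cells the sexes overlapped, with 45.0, 43.3 and 47.1 CPM in female and 56.3, 55.7 and 47.1 CPM in male libraries, and 8.57% of genes did not overlap there. Hsd17b12, split in the same way, was higher in female early myelinating cells, at 178, 145 and 145 CPM in female and 128, 117 and 120 CPM in male libraries, without overlap where 9.95% of genes had none (exact permutation p = 0.1). The female replicate 3 value there rests on 6 UMIs, and in the other mature stages Hsd17b12 overlapped.

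Hsd17b12 in inhibitory neurons was at 85.6, 90.4 and 110 CPM in female and 78.1, 71.3 and 82.5 CPM in male libraries, without overlap (log2 change +0.28 ± 0.11, edgeR, unadjusted p = 0.0277, adjusted p = 0.721). With the replicate number as a block the log2 change was +0.30 ± 0.07 and the adjusted p 0.0229, in a fit that called 3.76% of genes. The labels do not give this pairing of libraries. It was inferred from these same data, in which female replicate 2 correlated more with male replicate 1 than with male replicate 2. In excitatory neurons Hsd17b12 was at 96.7 and 98.7 CPM in female and 72.2, 66.8 and 108 CPM in male libraries, which overlap (+0.39 ± 0.17, adjusted p = 0.689). With the block it was +0.54 ± 0.10 and the adjusted p 0.00542, where 3.94% of genes were called. Female replicate 3 had too few excitatory neurons, so male replicate 3 (108 CPM) stood alone in its block and that call rests on 2 female against 2 male libraries. Fitted in the same way, none of the genes passed over all cells, where 0.0372% did, or in mature oligodendrocytes, where 0.259% did. In oligodendrocyte precursors Hsd17b12 was lower in female libraries, at 310, 326 and 275 CPM, against 326, 329 and 380 CPM in male libraries, with no overlap, by a narrow margin, where 7.44% of genes had none (-0.14 ± 0.15, adjusted p = 1). In endothelial cells it was at 41.7, 33.2 and 26.5 CPM in female and 116, 50.5 and 57.9 CPM in male libraries, without overlap where 8.33% of genes had none, on counts too low for edgeR's filter. Hsd11b1 in astrocytes was at 56.0, 46.8 and 19.7 CPM in female and 60.4, 82.1 and 83.0 CPM in male libraries, without overlap where 8.63% of genes had none (-0.56 ± 0.31, adjusted p = 1). Cyp19a1 in inhibitory neurons was at 0.497, 0.573 and 0 CPM in female and 0.943, 0.748 and 0.752 CPM in male libraries. These did not overlap where 13.3% of genes had none (log2 change -0.58 ± 0.35, edgeR, adjusted p = 0.814). The means were 0.357 ± 0.311 CPM in female and 0.814 ± 0.111 CPM in male libraries. The female mean takes in the 0 of female replicate 3, which had 91 such cells, too few to measure a level this low. These levels rest on 78 UMIs in all. Star had wide overlap between the sexes wherever it was counted.

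**Figure D5:**
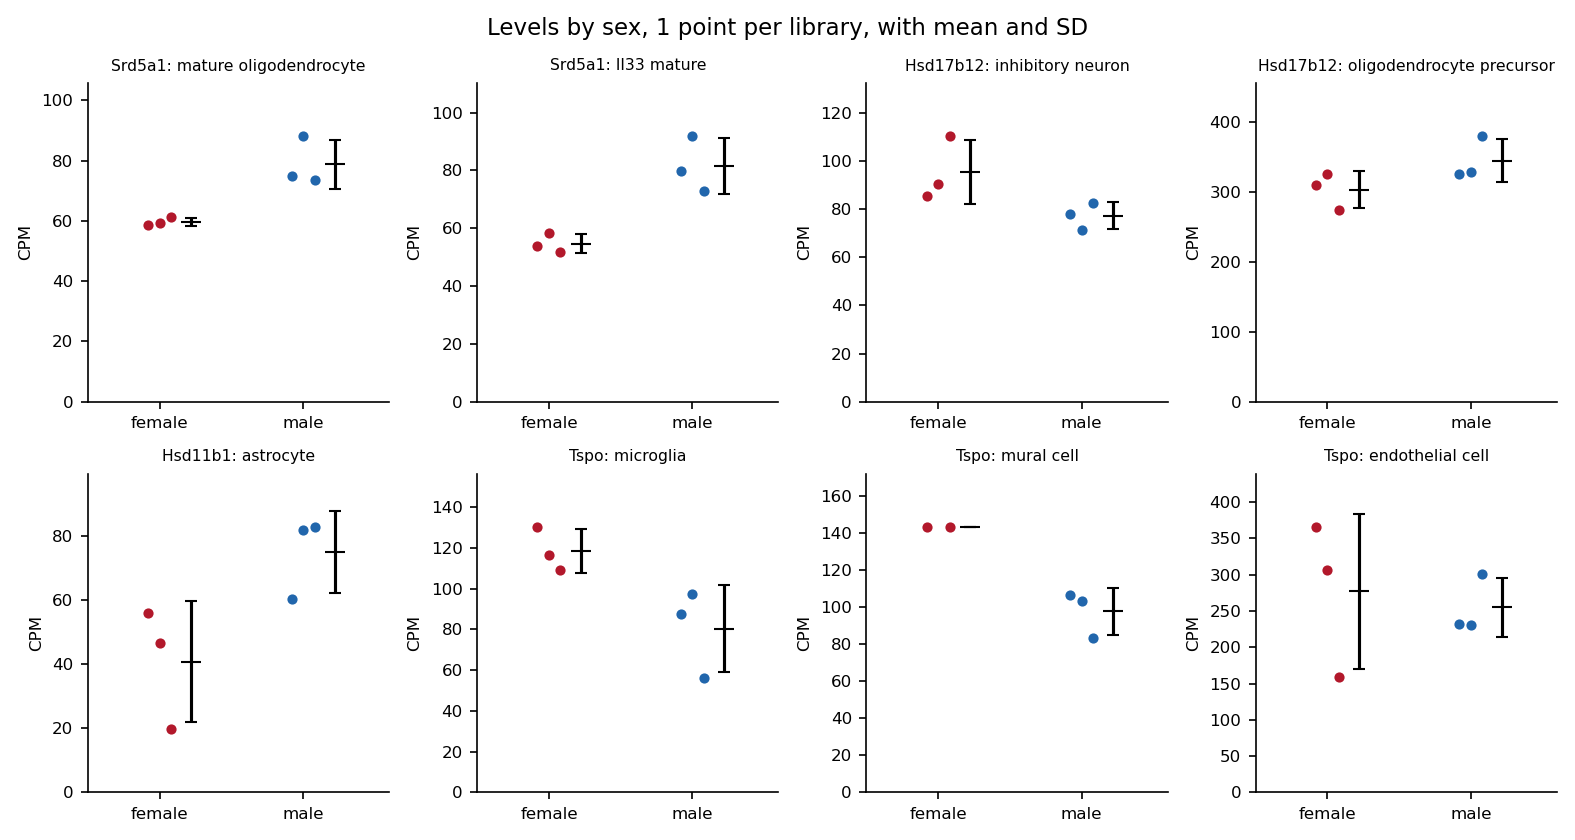
Levels in CPM of 4 of the genes in classes where female and male libraries were compared, with 1 point per library (female left, male right) and the mean and SD beside them. Srd5a1 in mature oligodendrocytes stands at 58.6 to 61.2 CPM in female and 73.5 to 88.1 CPM in male libraries, and endothelial Tspo overlaps.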

How the data were processed

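Single-cell RNA was measured in 6 libraries, 3 female and 3 male, of the mouse preoptic region. The authors deposited raw UMI counts per gene and barcode; Cell Ranger 2.0.0 and the mm10 build are named in the submitters' processing notes. No source used here gives the annotation, the strand setting, the chemistry or the rule for calling cells. The genes, the marker and gene lists and the tests were chosen with earlier results of these data known.

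Each kept cell was scored for each class by the mean of its marker UMIs per 10000 UMIs, capped per marker. It was given a class when at least 3 markers were detected, the score was at least 0.3 and the second class reached at most 0.5 of the first; 2.76% of cells lay near a limit. Neurons were inhibitory or excitatory with at least 2 UMIs of a transmitter marker and 3 times those of the other kind. Mature oligodendrocytes in the top 25% of exactly 1 stage score were given that stage. Cells with markers of several classes stayed in no class, which was the treatment of doublets; Scrublet (expected rate 0.06) called 49.7% of these and 1.19% of cells with a class, and leaving its calls out was an alternative. For thinned shares, 557 cells under 2000 UMIs were left out.

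UMIs were summed per library and class where there were at least 10 cells, in at least 4 libraries. Sums were tested with edgeR 4.0.16 in R 4.3.3 (quasi-likelihood test, TMM scaling, filterByExpr with a minimum count of 10, Benjamini-Hochberg adjustment over all genes, threshold 0.05), with library as a block between cells of the same libraries and without a block between the sexes. Alternatives were DESeq2 1.42.0, another scaling, no filter, a stricter gate (score 0.4, second class 0.25), thinned cells and each library left out. Orders of class levels used log2(CPM + 1), or a pseudocount of 5. Python 3.11.15, numpy 2.4.6, pandas 2.3.3, scipy 1.17.1, scanpy 1.11.5 and matplotlib 3.10.9 were used, and the fits were tested on simulated counts.

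In the comparison of neurons the 10 genes with the largest change in each direction among those called and moving in the same direction in every library are named, beside listed genes; some named by these rules are not reported here. Same-numbered female and male libraries deviated together from their sex's mean, with correlations of 0.737, 0.185 and 0.568 over 7905 genes, so the numbers were taken to pair the samples, although female replicate 2 correlated more with male replicate 1 (0.479) and the labels do not say that a number marks a shared day or batch. Nothing in the labels says that replicates are separate preparations, so p-values measure the spread between these libraries, which may be technical in part. Between neurons with and without a Cyp19a1 UMI the fit did not take in all of that spread. There Cck was called although the libraries differed in direction, and the SE of Gal was small beside its differences between libraries.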

Additional observations from a re-analysis of the deposited data

Results flagged for a closer look

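In 17 of 65 groups of 4 to 6 libraries 1 library stood far from the others. A chance rate of about 1 in 20 groups does not apply where other libraries held no UMI, as in several of these groups. The count of 17 is therefore not set against it. Most rest on few UMIs. For Star, female replicate 1 stood above the other libraries in oligodendrocyte precursors (3.61 CPM), mature oligodendrocytes (1.85 CPM), microglia (4.25 CPM), endothelial cells (4.63 CPM) and cells of the Klk6 and Anln stage (2.25 CPM), and male replicate 3 in astrocytes (8.30 CPM). For Hsd11b1 the same held of male replicate 3 in excitatory neurons (1.93 CPM) and endothelial cells (11.6 CPM), female replicate 1 in mural cells (4.62 CPM), male replicate 1 in early myelinating (0.962 CPM) and Il33 cells (2.19 CPM), and female replicate 3 in Klk6 and Anln cells (9.42 CPM). Cyp19a1 stood apart in other neurons of female replicate 1 (1.94 CPM), and Srd5a1 in excitatory neurons of male replicate 3 (13.5 CPM) and in endothelial cells of female replicate 2 (2.37 CPM, from 1 UMI).

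Hsd17b12 in microglia was 36.3 CPM in female replicate 3, from 1 UMI, below all others, and in endothelial cells 116 CPM in male replicate 1, above all others.

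The sign of the Hsd17b12 difference between the sexes was not the same in all classes. The female minus male difference of mean CPM was +18.2 in inhibitory neurons, -41.6 in oligodendrocyte precursors and -41.0 in endothelial cells. The sexes did not overlap in any of the 3, among 36 contrasts compared. Over all genes 13.3%, 7.44% and 8.33% had no overlap in these classes. The precursor margin was narrow, and the female endothelial values rest on 9, 14 and 1 UMIs. The difference between classes was not tested.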

How the results depend on the processing

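The 63 results were recomputed to 751 values at other settings. Of those for main results, 185 kept their direction and side of the threshold, 6 lost a call, 2 gained one, 4 changed sign and 3 moved, and of those for single values 17 lost a call, 2 gained one, 4 changed sign, 2 moved and the others kept both. Among the main results, the log2 change of Hsd17b12 in early myelinating relative to newly formed cells was -0.35 with cells thinned to 2000 UMIs (adjusted p = 0.0594), and -0.86 to -0.57 with each library left out. Its step between newly formed cells and precursors lost its call with no filter (-0.11, adjusted p = 0.473) and with the stricter gate (-0.089, adjusted p = 0.442), and ran from -0.34 to -0.11 with each library left out. Its inhibitory minus excitatory value ran from -0.090 to +0.013, the last without female replicate 2. For Tspo that contrast passed with Scrublet calls left out (-0.70, adjusted p = 0.0456) and with the stricter gate (-0.93, adjusted p = 0.00752), and the microglial contrast ran from -0.27 to +0.13, above 0 without female replicate 1 (+0.13), female replicate 2 (+0.02) or male replicate 2 (+0.03). Neurons with a Cyp19a1 UMI gave 116 called genes in DESeq2, 63 with thinned cells and 144 to 270 with each library left out. The cause of these changes was not tested, except that thinning and leaving out a library use fewer UMIs.

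Among single values, Srd5a1 in newly formed cells against precursors was below 0 with thinned cells (-0.37) and without female replicate 1 (-0.00486), male replicate 2 (-0.090) or male replicate 3 (-0.02), with a range of -0.090 to +0.23 with each library left out. Its lower calls in astrocytes, microglia and endothelial cells, and its step between early and Il33 cells, also lost significance at some settings, keeping their direction. With the replicate number as a block, Hsd17b12 became significant in inhibitory (+0.30, adjusted p = 0.0229) and excitatory neurons (+0.54, adjusted p = 0.00542), and no other call between the sexes changed; Srd5a1 in mature oligodendrocytes was -0.45 (adjusted p = 0.295) and Tspo over all cells +0.52 (adjusted p = 0.999). The fits with the block called 550 genes against 8 in inhibitory neurons, 450 against 7 in excitatory neurons and 29 against 7 in mature oligodendrocytes.

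Depth limits Cyp19a1, Star and Hsd11b1 outside astrocytes most. Pools of mice, the rebuilt classes and the small size of female replicate 3 limit every comparison between the sexes.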
